A study of Mus musculus with 4 samples.

Results

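A set of 10 cytokine genes that macrophages and their neighbours secrete or shed were followed here: Il6, Il10, Il12a, Il12b, Il23a, Il27, Osm, Csf1, Il15 and Il16. They were chosen by gene symbol and make up 10 of the 53379 gene identifiers in the deposited count table. Each symbol matched 1 identifier of the table, and 9 of the 10 held enough reads to be tested.
The RNA came from tumour-associated macrophages of 2 C57BL/6J mice fed a high-fat diet (HFD in the plots) and 2 C57BL/6J mice fed a control diet (CD). Tumours of MC38, a mouse colon carcinoma line, were taken 21 days after implantation, and cells positive for CD45, CD11b and F4/80 were sorted from them. The sources used here give neither the composition and length of the diets nor the age and sex of the mice. The labels name a mouse for each library, so n is 2 animals a diet.

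Interleukins are small secreted proteins by which immune cells instruct each other, and most of those studied here act through paired receptor chains that bind JAK kinases and STAT transcription factors. Activated macrophages make IL-6, IL-12, IL-23, IL-27 and oncostatin M after danger or microbial signals, and IL-10 restrains that output. CSF1 is the growth factor that keeps macrophages alive, IL-15 sustains NK cells and memory T cells, and IL-16 attracts cells that carry CD4. The comparison asks whether host diet goes with a different level of these messengers' transcripts.

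The 4 libraries held 36898146 and 37147582 counts in the high-fat-diet mice and 34148682 and 37159552 counts in the control-diet mice. Mice of 1 diet differed from each other by a log2 ratio with an SD of 0.289 for high-fat diet and 0.426 for control diet, taken over genes averaging 3 or more in log2 CPM. The sort markers were abundant in every library: Ptprc (CD45) had 509 and 402 CPM in high-fat-diet mice and 534 and 573 CPM in control-diet mice, Itgam (CD11b) had 384 and 458 CPM against 348 and 482 CPM, and Adgre1 (F4/80) had 304 and 342 CPM against 226 and 377 CPM. CPM are counts normalised to the TMM-scaled library size. Bulk RNA cannot tell fewer cells of a type from less RNA per cell. Transcripts of other cell types were present, and some lists differed between the diets while others differed in 1 library. Neutrophil markers summed to 193 and 171 CPM in high-fat-diet mice 1 and 2 and to 396 and 194 CPM in control-diet mice 1 and 2. Of 12 such markers 11 were tested and 7 fell, not among them the most abundant, Mmp9 and Csf3r, and Ly6g was at 0 counts in both high-fat-diet libraries. Fibroblast and pericyte markers summed to 2086 to 2088 CPM against 786 to 1052 CPM, and 7 of 11 rose, Col3a1 and Col1a1 being the most abundant. For epithelial and tumour cell markers the sums were 39.8 to 46.2 CPM and 113 to 157 CPM, and 6 of 7 fell, with Krt8 among them and the most abundant, Cdh1, not called. Lymphocyte markers summed to 33.5 and 28.5 CPM in high-fat-diet mice and to 117 and 31.6 CPM in control-diet mice, so that only control-diet mouse 1 stood apart, and 2 of 12 tested fell, Gzma and Cd79a. Dendritic cell markers, of a cell type that also makes IL-12 and IL-23, summed to 149 and 174 CPM against 242 and 128 CPM, and 2 of 10 fell. These were Clec9a, with 3.15 and 2.42 CPM against 15.2 and 16.5 CPM (edgeR adjusted p = 0.00735), and Cd209a (log2 fold change -5.16, adjusted p = 0.0434), which was -2.82 with control-diet mouse 1 left out and was no longer called on dropping high-fat-diet mouse 1 (0.476) or mouse 2 (0.371). The 2 most abundant dendritic cell markers were not called. Fscn1 had 108 and 124 CPM in high-fat-diet mice against 125 and 60.3 CPM in control-diet mice, and Cacnb3 had 20.4 and 22.1 CPM against 26.8 and 12.6 CPM. Gzmb, the most abundant lymphocyte marker, had 11 and 8.29 CPM against 41 and 9.49 CPM and was not called. Cd79a, Clec9a and Cd209a are named after their values were seen. Mast cell, basophil and eosinophil markers summed to 5.74 and 5.58 CPM against 39.4 and 9.06 CPM, and endothelial markers to 42.2 and 57.9 CPM against 91.6 and 51.4 CPM. Control-diet mouse 1 held the highest sum of the neutrophil, lymphocyte, dendritic, mast cell, endothelial and epithelial lists. The part of these cells in the results below was not tested.

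Osm and Csf1 supplied most of the reads of the 10 genes: 84.2 and 84.4% of their summed CPM in high-fat-diet mice 1 and 2, against 92 and 86.1% in control-diet mice 1 and 2. Levels of different genes were compared as CPM per kilobase of exon. On that scale Osm stood at 74.8 and 77.3 in the high-fat-diet mice and at 173 and 82.3 in the control-diet mice. Csf1 followed with 27.8 and 23.7 against 26.9 and 13.9, and Il27 with 9.18 and 8.01 against 12.3 and 6.45 CPM per kilobase. The order then ran Il15, Il10, Il16, Il12b, Il6, Il23a and Il12a in high-fat-diet mice, and Il10, Il15, Il16, Il12b, Il6, Il23a and Il12a in control-diet mice. Il15 and Il10 overlapped in their ranges in both diets. In control-diet mice the ranges of Il12b, Il6 and Il23a also ran into one another, whereas in high-fat-diet mice they were apart, at 1.11 to 2.51, 0.055 to 0.215 and 0.0238 to 0.0464 CPM per kilobase.

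**Figure D1:**
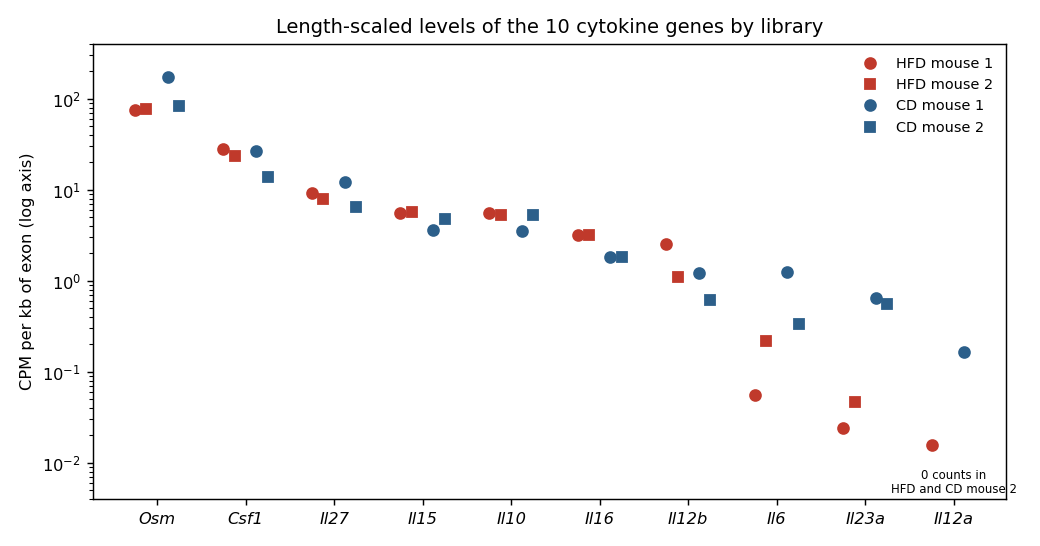
Level of each cytokine gene in every library, in CPM per kilobase of exon on a log axis, with circles for mouse 1 and squares for mouse 2 of each diet. Osm leads in all 4 libraries, and the high-fat-diet points of Il23a (0.0238 and 0.0464) lie far under its control-diet points (0.645 and 0.562).

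Of the 9 tested genes, edgeR's quasi-likelihood test called 1 higher and 1 lower in high-fat-diet mice at an adjusted p below 0.05. Over all 18422 genes tested, 2.61% were called higher and 7.91% lower, and 10.5% in either direction. The cytokine genes' own share, 22.2%, rests on 2 genes. The gene that rose was Il16, and the gene that fell was Il23a. The median log2 fold change of the 9 genes was 0.29, against 0.00 over all genes tested. High-fat-diet and control-diet libraries were fully apart in 5 of the 9, as they were in 63.8% of all genes tested. Il15 and Il16 were higher in both high-fat-diet mice, as were 32.2% of all genes tested, and Il6, Il23a and Osm were lower in both, as were 31.6%. An unadjusted p below 0.05 was reached by 3 of the 9, against 31.3% of all genes tested.

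**Figure D2:**
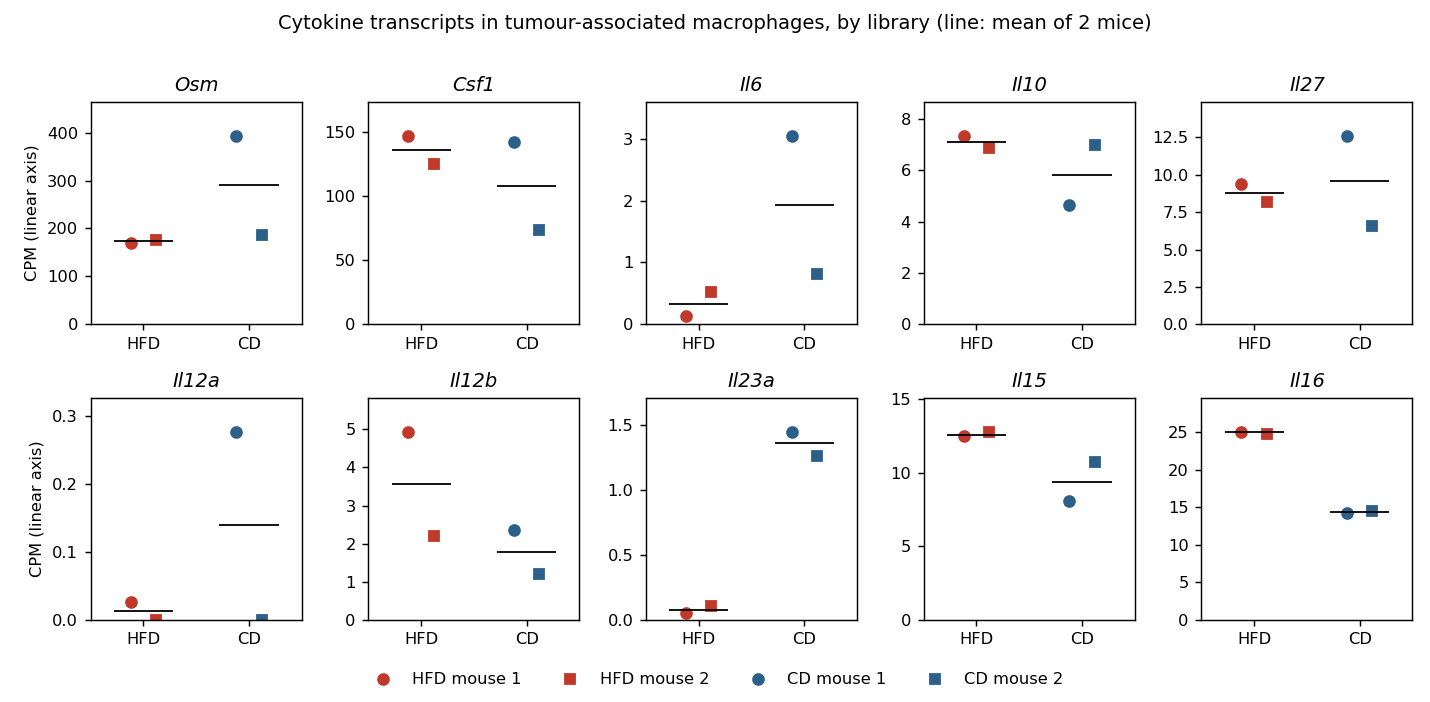
CPM of the 10 cytokine genes in each library on linear axes starting at 0, with a line at the mean of the 2 mice of a diet. The mice of a diet lie close together for Il16 (25.1 and 24.8 CPM in high-fat-diet mice, 14.2 and 14.5 CPM in control-diet mice), while the control-diet mice differ for Osm (393 and 187 CPM).

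The IL-12 family is built from shared chains, and of its genes Il23a alone was called, with Il12b, Il27 and Ebi3 not called and Il12a not tested. Il12b encodes the chain common to IL-12 and IL-23, Il12a the second chain of IL-12 and Il23a the second chain of IL-23, a cytokine that sustains IL-17-producing T cells. Il23a (ENSMUSG00000025383.2, chromosome 10, 128296139 to 128298752, GRCm38, minus strand) had 2 and 4 counts in high-fat-diet mice and 47 and 47 counts in control-diet mice. These are 0.0534 and 0.104 CPM against 1.45 and 1.26 CPM. Both high-fat-diet libraries lay far under both control-diet libraries. The log2 fold change was -4.04 (SE 0.55, edgeR adjusted p = 0.0158) and the level 16.5-fold lower, where the median log2 fold change of the 1457 genes that fell was -2.44. Dropping high-fat-diet mouse 1 ended the call (log2 fold change -3.64, adjusted p = 0.0798), as did dropping high-fat-diet mouse 2 (log2 fold change -4.56, adjusted p = 0.0535). It was kept without either control-diet mouse (adjusted p = 0.0112 and 0.00297).

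The 3' end of Il23a faces that of Stat2, an interferon-signalling transcription factor gene on the plus strand, 3.29 kb away. Stat2 had 300 and 211 CPM in high-fat-diet mice and 318 and 255 CPM in control-diet mice (log2 fold change -0.16, SE 0.22, adjusted p = 0.646). Among genes of average log2 CPM below 2, those within 5 kb of an expressed gene (average log2 CPM 5 or more) without overlapping it were called lower in 24.5% (234 of 954), and those over 30 kb from any expressed gene in 5.8% (170 of 2933). Of all genes of average log2 CPM below 2, at any distance, 13.2% (868 of 6594) were called lower. The part of neighbouring transcripts in the Il23a counts was not tested, and the strand setting of the counting is unknown here. The 3 genes with the pattern most like that of Il23a over the 4 libraries, by Euclidean distance of log2 CPM centred on each gene's mean, were Lrrc43 (distance 0.0768), Rxfp4 (0.108) and Fscn2 (0.139). Lrrc43 had 0 and 1 counts in high-fat-diet mice and 24 and 22 counts in control-diet mice, so it too is a gene of few reads.

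Il12b (ENSMUSG00000004296.14, chromosome 11, 44400063 to 44414033) had 185 and 84 counts in high-fat-diet mice against 77 and 45 in control-diet mice, or 4.94 and 2.19 CPM against 2.37 and 1.21 CPM. High-fat-diet mouse 1 was highest, and the other high-fat-diet mouse lay between the control-diet mice. The log2 fold change of 1.00 (SE 0.51) was not called (edgeR adjusted p = 0.231), and leaving out 1 library gave 0.31 to 1.56. The ratio of Il23a to Il12b per kilobase, with Il12b also serving IL-12, was 0.00946 and 0.0417 in high-fat-diet mice and 0.534 and 0.914 in control-diet mice. These ratios did not overlap between diets. Any such pattern gives an exact two-sided permutation p = 0.333, the smallest p that 2 mice against 2 allow, so that test cannot decide. Il12a (chromosome 3, 68690644 to 68698547) was barely detected, with 1 and 0 counts against 9 and 0 counts, and was not tested. The counts summed over a diet give a ratio of 0.102 of high-fat over control diet (exact conditional 95% interval 0.00233 to 0.737, counting error only), and all 9 control-diet reads came from mouse 1.

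Il27 and Ebi3 encode the chains of IL-27, which restrains T cells. Il27 (ENSMUSG00000044701.5, chromosome 7, 126589010 to 126594941) had 9.37 and 8.18 CPM in high-fat-diet mice and 12.6 and 6.59 CPM in control-diet mice. The high-fat-diet values lay between those of the control-diet mice (log2 fold change -0.13, SE 0.33, edgeR adjusted p = 0.821), and the direction turned to 0.42 without control-diet mouse 1. Exons of Il27 share 103 bases with Apobr on the opposite strand, which had 161 and 161 CPM against 220 and 191 CPM. Ebi3 had 22 and 23.5 CPM in high-fat-diet mice and 21.3 and 26.4 CPM in control-diet mice (log2 fold change -0.07, SE 0.17, adjusted p = 0.812). The Il27 to Ebi3 ratio per kilobase was 0.481 and 0.394 against 0.67 and 0.282, so both chains overlapped between the diets in level and in ratio.

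Il6 and Osm encode cytokines of the IL-6 family, which share the signalling chain Il6st, and IL-6 drives acute-phase and STAT3 responses. Il6 (ENSMUSG00000025746.11, chromosome 5, 30013114 to 30019981) had 5 and 20 counts in high-fat-diet mice and 99 and 30 counts in control-diet mice. In CPM these are 0.134 and 0.521 against 3.05 and 0.807. Both high-fat-diet mice were lower, but the mice within a diet differed 3.9-fold in high-fat diet and 3.78-fold in control diet. The log2 fold change of -2.53 (SE 0.84) was not called by edgeR (adjusted p = 0.104); DESeq2 called it at -2.54 (adjusted p = 0.026), and edgeR did at -3.20 without control-diet mouse 2 (adjusted p = 0.0073). Without control-diet mouse 1 it was -1.28 (adjusted p = 0.296). The 250 bases before the start of Il6 (RefSeq, GRCm38.p6, plus strand, chr5:30012864-30013113) are shown because they hold 3 of the 6 motifs searched; capitals mark AP-1 (TGANTCA), C/EBP (TTNCNNAA) and NF-kB (GGG, 2 bases of any kind, TTTCC) in that order.
Il6: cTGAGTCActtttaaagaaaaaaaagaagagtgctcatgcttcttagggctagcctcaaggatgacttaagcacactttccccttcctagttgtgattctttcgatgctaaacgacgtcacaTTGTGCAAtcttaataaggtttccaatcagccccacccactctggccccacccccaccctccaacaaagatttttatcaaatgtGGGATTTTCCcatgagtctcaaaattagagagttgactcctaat
On both strands, the NF-kB letters occur in 1.41%, the AP-1 letters in 6.75% and the C/EBP letters in 36.8% of 32851 promoter windows of this length. The match to NF-kB begins 44 bases before the start. The other motifs searched were the cyclic AMP response element (TGACGTCA, in 1.55% of windows), STAT (TTCNNNGAA, in 7.02%) and the interferon response element (GAAA, 2 bases of any kind, GAAA, in 2.98%).

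Osm (ENSMUSG00000058755.3, chromosome 11, 4236420 to 4241026) encodes oncostatin M, which acts on stromal and epithelial cells through Osmr or Lifr. It had 170 and 176 CPM in high-fat-diet mice and 393 and 187 CPM in control-diet mice. The high-fat-diet mice were nearly equal and lower than both control-diet mice, of which mouse 1 stood apart at 2.1 times mouse 2. The log2 fold change was -0.75 (SE 0.33, edgeR adjusted p = 0.185), -0.11 with control-diet mouse 1 left out (adjusted p = 0.71) and -1.18 with mouse 2 left out (adjusted p = 0.00205), where it was called. The size of the difference thus turned on which control-diet mouse stayed in.

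Il10 encodes the main anti-inflammatory interleukin of macrophages. Il10 (ENSMUSG00000016529.5, chromosome 1, 131019845 to 131024974) had 7.34 and 6.88 CPM in high-fat-diet mice and 4.65 and 6.99 CPM in control-diet mice. Control-diet mouse 1 was the low one, and control-diet mouse 2 lay between the high-fat-diet mice (log2 fold change 0.29, SE 0.27, edgeR adjusted p = 0.499). Without control-diet mouse 1 the log2 fold change was 0.03.

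Csf1 (ENSMUSG00000014599.10, chromosome 3, 107741048 to 107760469) had 147 and 125 CPM in high-fat-diet mice and 142 and 73.2 CPM in control-diet mice. Only control-diet mouse 2 was low, and the log2 fold change of 0.34 (SE 0.31) was not called (edgeR adjusted p = 0.494). Leaving out control-diet mouse 1 gave 0.90 (adjusted p = 0.0241) and leaving out mouse 2 gave -0.07. Il34, which encodes the other ligand of the CSF1 receptor, had 13.8 and 15.4 CPM against 15 and 6.69 CPM (log2 fold change 0.43, SE 0.37, adjusted p = 0.461), with control-diet mouse 2 again the low one. Csf1r itself had 1673 and 1633 CPM in high-fat-diet mice and 2120 and 2007 CPM in control-diet mice (log2 fold change -0.32, SE 0.16, adjusted p = 0.218).

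Il15 and Il16 were higher in both high-fat-diet mice. Il15 (ENSMUSG00000031712.10, chromosome 8, 82331632 to 82403222) had 12.5 and 12.8 CPM in high-fat-diet mice and 8.08 and 10.7 CPM in control-diet mice. The groups did not overlap, but the log2 fold change of 0.43 (SE 0.21) was not called (edgeR adjusted p = 0.221). Il15ra, the chain that presents IL-15 on the cell surface, had 16.2 and 13.9 CPM against 25.2 and 17.2 CPM (log2 fold change -0.50, SE 0.23, adjusted p = 0.193).

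Il16 (ENSMUSG00000001741.12, chromosome 7, 83642825 to 83745726, GRCm38, minus strand) encodes a precursor from which the CD4-binding cytokine is cut. It had 939 and 953 counts in high-fat-diet mice and 462 and 538 counts in control-diet mice, which are 25.1 and 24.8 CPM against 14.2 and 14.5 CPM. The mice of a diet differed by 1.01-fold in high-fat diet and 1.02-fold in control diet, the tightest pairs among the 9 tested genes. Il16 rose 1.74-fold (log2 fold change 0.80, SE 0.15, edgeR adjusted p = 0.0321), where the median log2 fold change of the 480 genes that rose was 1.17. The log2 fold change was 0.79 to 0.83 with any 1 library left out, while the call was lost on dropping high-fat-diet mouse 1 (adjusted p = 0.194) or mouse 2 (adjusted p = 0.152). Exons of Il16 share 1202 bases with Stard5 on the opposite strand, a sterol-binding protein gene that had 18.9 and 19.4 CPM in high-fat-diet mice and 15.1 and 11.3 CPM in control-diet mice (log2 fold change 0.53, adjusted p = 0.133). Without the strand setting, reads of this shared stretch cannot be told apart. RefSeq (GRCm38.p6) lists 3 start windows for Il16, all on the minus strand. The 250 bases before the start are given for the 2 that hold a motif searched, chr7:83735540-83735789 and chr7:83655496-83655745. Capitals mark 2 overlapping C/EBP matches and 1 AP-1 match in the first, and a C/EBP and an NF-kB match in the second.
Il16, upstream start: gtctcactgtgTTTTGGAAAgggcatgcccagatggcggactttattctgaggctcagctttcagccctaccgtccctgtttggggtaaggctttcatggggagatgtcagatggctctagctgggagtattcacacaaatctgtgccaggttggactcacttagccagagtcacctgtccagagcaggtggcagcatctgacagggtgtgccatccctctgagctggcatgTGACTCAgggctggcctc
Il16, downstream start: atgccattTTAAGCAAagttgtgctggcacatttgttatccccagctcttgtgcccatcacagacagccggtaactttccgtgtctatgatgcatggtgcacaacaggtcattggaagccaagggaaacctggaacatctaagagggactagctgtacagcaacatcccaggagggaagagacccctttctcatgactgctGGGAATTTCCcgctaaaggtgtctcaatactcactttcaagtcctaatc
Counts per gene do not say which start was used. RefSeq windows were also matched for Il12a, Il12b and Csf1, of which that of Csf1 holds the NF-kB letters, beginning 154 bases before its start.

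**Figure D3:**
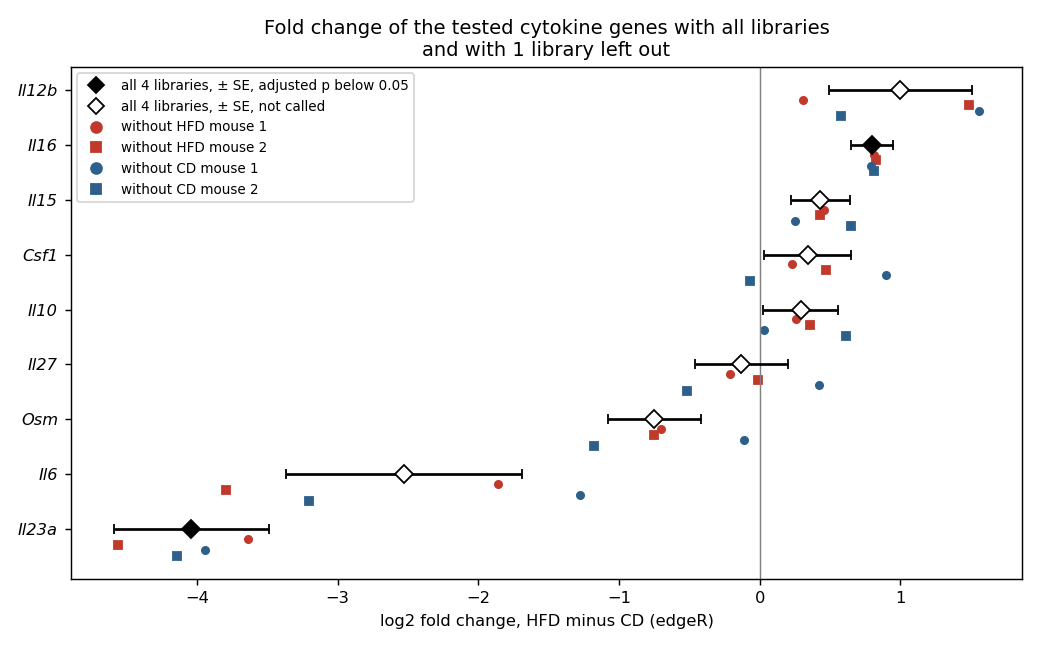
Log2 fold change of the 9 tested cytokine genes, high-fat diet minus control diet, with all 4 libraries (diamonds, bars are ± SE, filled where called) and with each library left out (small points). Il16 keeps its size in every fit (0.79 to 0.83), while Osm moves between -1.18 and -0.11 and Csf1 between -0.07 and 0.90 with the control-diet mouse left out.

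Of 15 receptor chains for these cytokines 14 were tested, 1 rose and 1 fell, and the list had a median log2 fold change of -0.40. Beside this and the lists below stand all genes tested, of which 2.61% were called higher and 7.91% lower, with a median of 0.00. Cd4, which encodes the T-helper coreceptor that IL-16 binds, rose 7.64-fold: it had 3.39 and 4.12 CPM in high-fat-diet mice and 0.493 and 0.484 CPM in control-diet mice (log2 fold change 2.93, SE 0.33, edgeR adjusted p = 0.0113). Both high-fat-diet mice were far above both control-diet mice, and the call held in each fit without 1 library. The CD3 chains Cd3d, Cd3e and Cd3g, which mark all T cells and not only those that carry CD4, overlapped between the diets. Cd3e had 1.71 and 1.67 CPM in high-fat-diet mice against 2 and 0.511 CPM in control-diet mice (log2 fold change 0.44, SE 0.61, adjusted p = 0.661). For Cd3e, control-diet mouse 1 lay above both high-fat-diet mice and control-diet mouse 2 below both. Without control-diet mouse 1 the log2 fold change was 1.72 for Cd3e, 1.21 for Cd3g and 0.80 for Cd3d. Of the 12 lymphocyte markers tested, 4 had a positive and 8 a negative log2 fold change with all libraries, with a median of -0.68. The part of T cells in the Cd4 result was not tested. Both Il16 and Cd4 rose, Cd4 by more. Their ratio per kilobase, Il16 over Cd4, was therefore lower, at 3.79 and 3.09 in high-fat-diet mice and 14.8 and 15.3 in control-diet mice. The exact two-sided permutation p = 0.333 is the smallest possible and cannot decide.

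Il6ra, the IL-6-binding chain, fell 1.61-fold, with 137 and 120 CPM in high-fat-diet mice against 216 and 199 CPM in control-diet mice (log2 fold change -0.69, SE 0.15, edgeR adjusted p = 0.0422). The diets were apart, but the call was lost on dropping high-fat-diet mouse 1 (adjusted p = 0.181), mouse 2 (0.247) or control-diet mouse 1 (0.0568). Its exons share 242 bases with the antisense gene Gm42809, which had 0.214 and 0.13 CPM against 0.956 and 1.51 CPM. The shared chain Il6st had 153 and 134 CPM against 136 and 107 CPM (log2 fold change 0.24, SE 0.18, adjusted p = 0.379). Osmr, which pairs with Il6st in a receptor for oncostatin M, had 7.21 and 7.58 CPM in high-fat-diet mice against 4.72 and 3.84 CPM in control-diet mice. The ligand gene Osm was not called, with a log2 fold change of -0.75, or -0.11 without control-diet mouse 1. With the filter on low counts Osmr was not called either (log2 fold change 0.79, SE 0.23, adjusted p = 0.0787). With no such filter edgeR called it (log2 fold change 0.84, adjusted p = 0.0426). Leaving out control-diet mouse 1 gave a log2 fold change of 0.95 and leaving out mouse 2 gave 0.65. Il12rb2, the signalling chain of the IL-12 receptor on T and NK cells, had 1.07 and 0.599 CPM against 5.92 and 2.1 CPM. It was not called with all libraries (log2 fold change -2.26, SE 0.58, adjusted p = 0.0597), was called by DESeq2 (adjusted p = 0.00279), and shares 1519 exonic bases with Serbp1 on the opposite strand. Leaving out control-diet mouse 1 gave -1.33 (adjusted p = 0.0849), and leaving out mouse 2 gave -2.83 (adjusted p = 0.00115). Il2rb, through which IL-15 signals, had 11.2 and 13.4 CPM in high-fat-diet mice and 60.9 and 12.7 CPM in control-diet mice (log2 fold change -1.58, adjusted p = 0.161). Control-diet mouse 1 was the only library high in Il2rb, and the part of other cell types in this was not tested. Its log2 fold change was -0.04 with that library left out and -2.31 with control-diet mouse 2 left out, where it was called (adjusted p = 0.000107). Il10ra, the IL-10-binding chain, had 375 and 334 CPM against 575 and 401 CPM (log2 fold change -0.46, SE 0.21, adjusted p = 0.194).

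**Figure D4:**
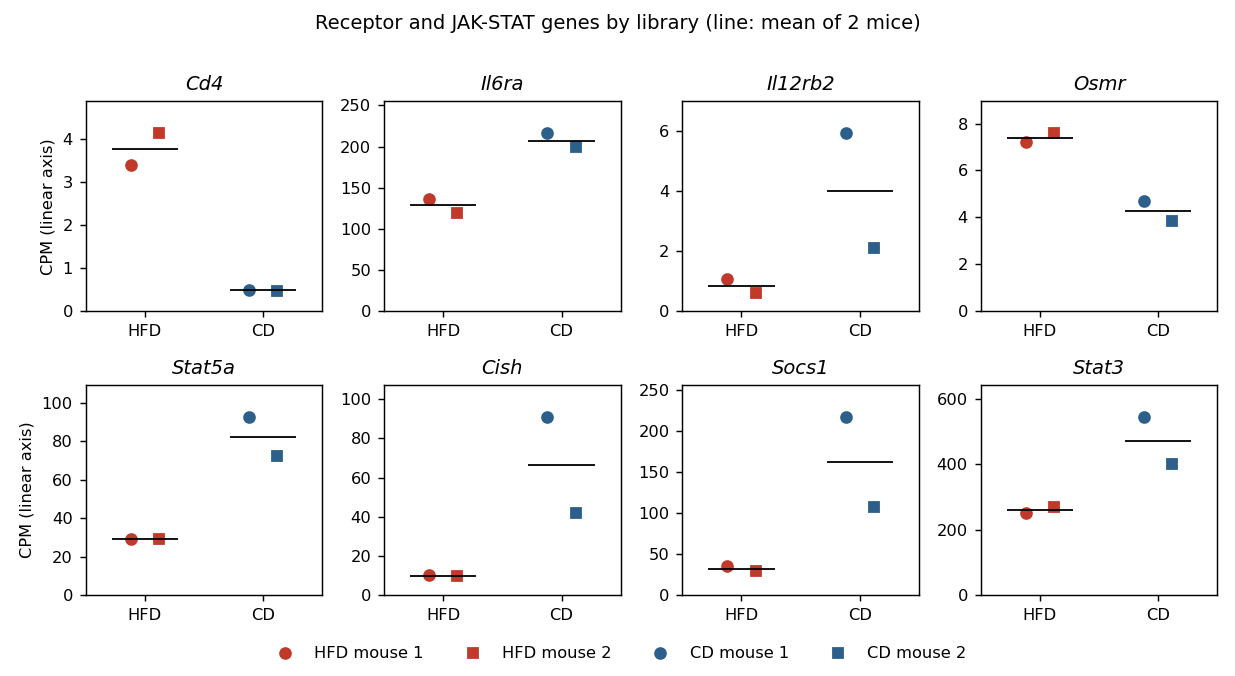
CPM of 4 receptor genes and 4 JAK-STAT genes by library on linear axes from 0, with a line at the mean of a diet. Cd4 is higher in both high-fat-diet mice (3.39 and 4.12 against 0.493 and 0.484 CPM), and Stat5a, Cish, Socs1 and Stat3 are lower in both.

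Among 19 ligands of the same families 11 were tested, 1 fell and the other 10 were not called (median log2 fold change -0.07). The gene that fell was Csf3, the granulocyte growth factor G-CSF, with 3 and 0 counts in high-fat-diet mice and 26 and 26 counts in control-diet mice (edgeR adjusted p = 0.0403). Summed over a diet these give a ratio of 0.053 (exact conditional 95% interval 0.0106 to 0.164, counting error only), and the call was lost on dropping high-fat-diet mouse 1 (adjusted p = 0.0743) or mouse 2 (0.161). Like Il23a, Csf3 is a gene of few reads. Its nearest expressed gene was Med24, 0.962 kb away on the opposite strand. Med24 had 61.1 and 65.1 CPM in high-fat-diet mice and 60.1 and 54 CPM in control-diet mice (log2 fold change 0.14, edgeR adjusted p = 0.522). The part of neighbouring transcripts in the Csf3 counts was not tested. Il7, a lymphocyte growth factor, had 0.881 and 0.652 CPM against 0.154 and 0.349 CPM (adjusted p = 0.119). It was higher in both high-fat-diet mice without being called with all libraries. Leaving out 1 library gave log2 fold changes of 1.13 to 2.29. Il11, an IL-6 family cytokine, had 0.347 and 0.521 CPM against 0.832 and 1.26 CPM (adjusted p = 0.132), and Lif, another, had 5.63 and 10.6 CPM against 19.1 and 7.85 CPM (adjusted p = 0.341).

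Transducers and feedback genes downstream of the receptors were lower in part. Of 17 JAK-STAT genes, all tested, 4 fell and the other 13 were not called, with a median log2 fold change of -0.38. Of all genes tested 7.91% fell. Cish, a feedback inhibitor induced by STAT5, fell 6.73-fold, with 10.1 and 9.62 CPM in high-fat-diet mice and 90.9 and 42 CPM in control-diet mice (log2 fold change -2.75, SE 0.37, edgeR adjusted p = 0.0155). Stat5a, which relays growth factor cytokines, fell 2.82-fold to 29.2 and 29.2 CPM in high-fat-diet mice, against 92.7 and 72.2 CPM in control-diet mice (log2 fold change -1.50, SE 0.17, adjusted p = 0.012). Both genes were apart between the diets. Socs1, a feedback inhibitor of interferon and interleukin receptors, fell 5.07-fold (adjusted p = 0.0191), and Stat3, the main relay of IL-6 and IL-10, fell 1.82-fold to 250 and 270 CPM, against 544 and 400 CPM in control-diet mice (adjusted p = 0.0444). Cish, Socs1 and Stat3 were no longer called once either high-fat-diet mouse was dropped (adjusted p between 0.129 and 0.235), and Stat3 also without control-diet mouse 1 (0.0576), while the call of Stat5a held in each such fit. Without control-diet mouse 1 the log2 fold change was -2.09 for Cish and -1.74 for Socs1. Exons of Stat5a and Stat3 share 72 bases on opposite strands, and those of Cish share 261 with Gm17040, which had 3 and 2 counts against 78 and 27. The kinases Jak2, with 92.3 and 70 CPM against 284 and 123 CPM, and Tyk2, with 115 and 113 CPM against 187 and 156 CPM, were not called with all libraries (adjusted p = 0.0787 and 0.0616). DESeq2 called both (adjusted p = 0.00221 for Jak2 and 0.0334 for Tyk2). The log2 fold change of Jak2 was -1.33 with all libraries, -0.60 with control-diet mouse 1 left out (adjusted p = 0.0952) and -1.81 with mouse 2 left out (adjusted p = 0.000503).

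Of 25 transcription factors and cofactors that act on cytokine genes, all tested, 1 rose, 6 fell and 18 were not called (median log2 fold change -0.46). Of all genes tested 2.61% rose and 7.91% fell. Rel, the NF-kB subunit c-Rel known to drive Il12b and Il23a in mouse myeloid cells, fell 3.18-fold to 75.4 and 61.6 CPM in high-fat-diet mice, against 231 and 204 CPM in control-diet mice (log2 fold change -1.67, SE 0.17, edgeR adjusted p = 0.00943). Of these targets Il23a was called lower and Il12b was not called (log2 fold change 1.00, edgeR adjusted p = 0.231). The part of Rel in either was not tested. Crem, a cyclic AMP-responsive factor, fell 7.57-fold (adjusted p = 0.00557) and Ets2, a factor downstream of MAP kinases, fell 3.03-fold (adjusted p = 0.0135). Irf1, an interferon-induced factor, fell 2.66-fold (adjusted p = 0.0261), and Nfil3 fell 3.57-fold (adjusted p = 0.03). The sixth gene that fell was Prdm1, named after its values were seen, at 2.11-fold (adjusted p = 0.0391). Maf, a factor known to activate Il10 and to restrain Il12b in macrophages, rose 2.25-fold to 349 and 353 CPM, against 119 and 192 CPM in control-diet mice (log2 fold change 1.17, SE 0.24, adjusted p = 0.0375). Neither of those target genes was called. Dropping either high-fat-diet mouse ended the calls of Nfil3, Prdm1 and Maf (adjusted p between 0.117 and 0.213), and dropping mouse 2 that of Irf1 (0.101), whereas those of Rel, Crem and Ets2 held in each such fit. The summed CPM of 12 immediate early and handling genes was 8801 and 9892 in high-fat-diet mice and 12513 and 9260 in control-diet mice, highest in control-diet mouse 1, with 1 of the 12 called lower, and its part in these results was not tested.

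Cytokine mRNAs are short-lived, and 10 genes that govern their decay were all tested: 1 rose, 1 fell and 8 were not called (median log2 fold change 0.06). Arid5a, which protects the Il6 mRNA from decay in mice, fell 3.88-fold to 54.6 and 56.5 CPM in high-fat-diet mice, against 268 and 163 CPM in control-diet mice (log2 fold change -1.96, SE 0.25, edgeR adjusted p = 0.0144). Hnrnpd, which encodes the AU-rich element binding protein AUF1, rose 1.61-fold with 186 and 157 CPM against 99.9 and 113 CPM (adjusted p = 0.0476). Both were apart between the diets, and neither was called once a high-fat-diet mouse was dropped (adjusted p between 0.056 and 0.267). Hnrnpd was also not called without control-diet mouse 1 (0.0747). Zfp36, which encodes the decay factor tristetraprolin, had 2207 and 2190 CPM in high-fat-diet mice and 1783 and 1180 CPM in control-diet mice. With the filter on low counts edgeR did not call it (adjusted p = 0.154), and with no filter it did (0.0491). Zfp36l1, of the same family, had 203 and 227 CPM against 181 and 145 CPM (adjusted p = 0.176). Rc3h1 (Roquin-1) had 64.7 and 56.3 CPM against 77.7 and 104 CPM (edgeR adjusted p = 0.095, and 0.0445 with no filter on low counts). Zc3h12a (Regnase-1) had 82.3 and 104 CPM against 137 and 104 CPM (adjusted p = 0.25).

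**Figure D5:**
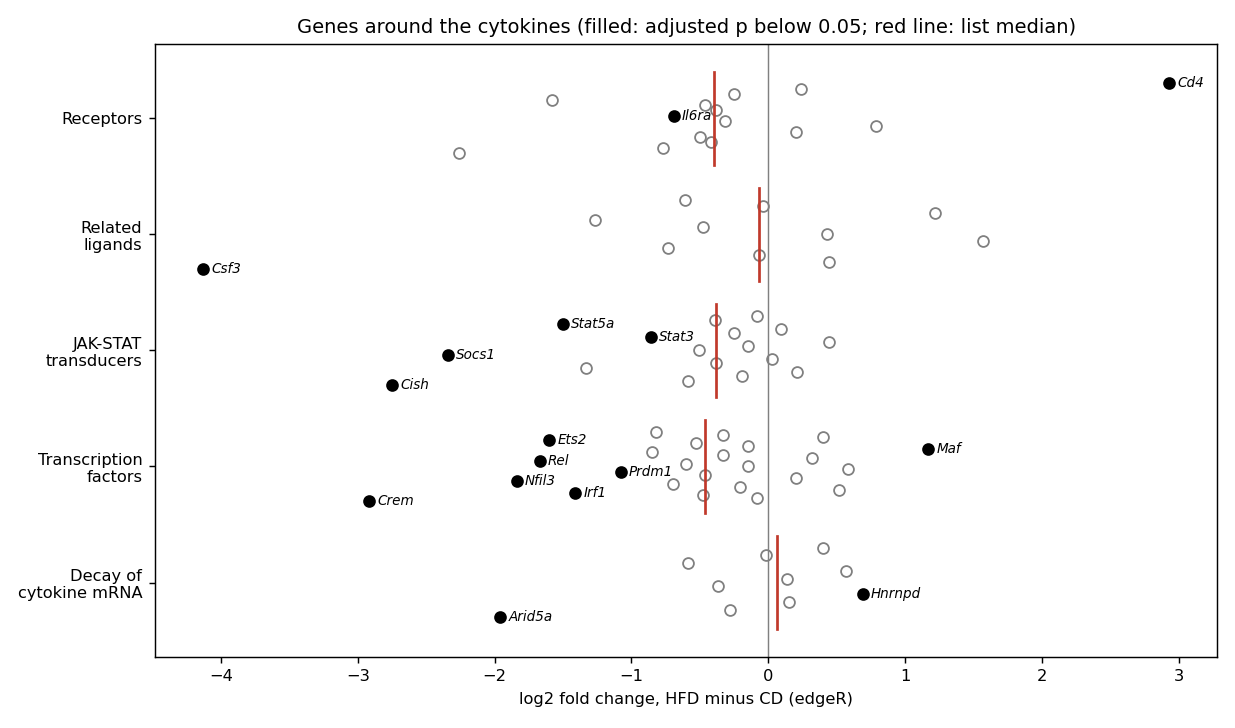
Log2 fold change, high-fat diet minus control diet, of every tested gene in the 5 lists around the cytokines; filled points passed an adjusted p below 0.05 and are named, and red lines mark list medians. The filled points of the JAK-STAT list all lie at or below -0.86, and among the receptors Cd4 lies apart at 2.93; the point of Csf3 is a fitted value for 3 and 0 counts in high-fat-diet mice.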

How the data were processed

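Sorted tumour-associated macrophages of 4 mice were measured by polyA RNA sequencing with a stranded kit, per the labels' protocols. The deposited values are counts, whole numbers of reads per versioned Ensembl mouse gene that the authors had not normalised. The submitters' processing notes name BWA 0.7.12, cutadapt 1.15, DESeq2 1.24.0 and FastQC 0.11.5, and the builds GRCm38 and mm10. The roles of these tools, the counting program and its strand setting are unknown here. Symbols came from a gene name table that matched 53274 of 53379 identifiers, positions and exon lengths from GENCODE mouse release M21 (GRCm38), and a symbol with several identifiers was kept for the one with most counts.

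Tests used R 4.3.3 and edgeR 4.0.16. The edgeR filter filterByExpr (minimum count 10, minimum total 15) left 18422 genes, libraries were TMM-scaled, and the quasi-likelihood test compared high-fat diet with control diet, with Benjamini-Hochberg adjustment over all genes tested and a call at 0.05. The SE is the log2 fold change divided by the square root of F. Alternatives were RLE scaling, no filter, DESeq2 1.42.0, limma 3.58.1 voom, the mouse number as a block and leaving out each library. Libraries of 34148682 to 37159552 counts limit precision for genes of few reads, and intervals cover counting error only. Named are the 10 cytokine genes, up to 6 genes of smallest p per pathway list, their receptor or partner chains and the sort markers. To these come the 2 most abundant genes of the neutrophil, fibroblast, epithelial, lymphocyte and dendritic cell lists. Among genes named outside this rule are Cd3d, Cd3e, Cd3g, Cd79a, Clec9a, Cd209a and Prdm1. A related ligand that this rule names is not reported here. The cytokine genes and all lists were chosen with earlier results of these data known, and p-values of single lists were not computed.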

Additional observations from a re-analysis of the deposited data

How the results depend on the processing

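With 2 mice a diet, a call rests on the spread between few animals, and a fit without 1 library takes the spread of the lone mouse from the other diet's pair. The counts of all genes called higher and lower, 480 and 1457 with all libraries, were 1552 and 2231 with no filter on low counts and 1075 and 1871 by DESeq2. Leaving out 1 library gave 71 to 1934 higher and 300 to 2534 lower, the fewest on dropping high-fat-diet mouse 1 (71 and 300) or mouse 2 (117 and 312) and the most on dropping control-diet mouse 1 (855 and 1681) or mouse 2 (1934 and 2534).

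Of the cytokine genes 1 was called higher and 1 lower with RLE scaling, no filter and limma voom, and 1 and 2 by DESeq2, which added Il6. Leave-one-out gave 0 to 2 higher and 0 to 3 lower. For the receptors no filter gave 2 higher and 2 lower and DESeq2 gave 2 lower, and leave-one-out gave 1 to 2 and 0 to 5. For the related ligands leave-one-out gave 0 to 1 higher and 0 to 1 lower, and for the JAK-STAT genes 1 to 7 lower. For the transcription factors no filter gave 3 higher and DESeq2 2 higher, and leave-one-out gave 0 to 3 higher and 3 to 14 lower. For the decay genes RLE scaling and limma voom gave 0 higher in place of 1 (Hnrnpd, adjusted p = 0.0504 and 0.0502), no filter gave 2 higher and 2 lower, and leave-one-out gave 0 to 1 higher and 0 to 2 lower. With no filter and by DESeq2, 5 and 6 JAK-STAT genes were called lower in place of 4. The same settings gave 8 and 9 transcription factors lower in place of 6. Some log2 fold changes not called with all libraries turned in direction with 1 left out. Their leave-one-out ranges were -0.52 to 0.42 for Il27, -0.07 to 0.90 for Csf1, -1.24 to 0.06 for Lif, -0.04 to 1.13 for Il34, -0.21 to 0.10 for Ebi3, -0.19 to 0.27 for Itgam and -0.22 to 0.52 for Adgre1. The causes were not tested.

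The labels number the mice 1 and 2 in each diet but do not say that the numbers pair them. With the mouse number as a replicate block, 567 genes were called higher and 1481 lower, with 1 cytokine gene in each direction, and 0 decay genes were called higher. Among single genes Il12rb2 and Jak2 gained a call under this block but not with the numbers crossed, and Il6ra (adjusted p = 0.0574) and Hnrnpd (0.0678) lost one. The deviations of same-numbered mice correlated at -0.188 across genes, and with the numbers crossed, an alternative chosen after seeing the data, the block gave 909 higher and 1546 lower genes, 1 and 2 cytokine genes, 0 related ligands lower and 2 decay genes lower.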
